A study of Mus musculus with 8 samples.

Results

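These 10 genes gave some of the largest differences between cells carrying the Ebf1-H240A protein and cells carrying Ebf1wt, and none of them belongs to the textbook B-cell programme. Ramp3, Srd5a2, Orm1, Grifin and Kcne1 were picked as higher with Ebf1-H240A, and Evpl, Scgb1c1, Htra3, Mc1r and Aldh1a3 as higher with Ebf1wt. They are 10 of 16322 genes tested. They were chosen by the signal difference between the 2 proteins on these arrays, so the values of that difference are given as a description without a test.

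RNA of mouse cells was measured on 8 one-colour Agilent arrays. In all groups the cells were c-Kit+ fetal liver progenitors of Ebf1-/- mice on the C57Bl/6 background, so every group lacks endogenous EBF1. The progenitors grew on OP9 cells, a stromal line that supports lymphoid development, with interleukin 7 at 5 ng/ml and with Flt3 ligand and stem cell factor at 10 ng/ml each. They received a pMys retrovirus with GFP and Ebf1-H240A (n = 3 arrays), GFP and Ebf1wt (n = 3) or GFP alone (Empty, n = 2), and GFP+ cells were sorted 36 h later. The proteins are expressed from a retroviral vector and not from the Ebf1 locus. The labels give neither the age of the donors nor whether replicates came from separate animals or cultures, so the p-values cover only the spread among these arrays, and that spread may be technical.

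EBF1 is a transcription factor that early B-lineage cells need, and it opens and activates its target genes while repressing genes of other lineages. In Ebf1-H240A an alanine replaces a histidine, which is known to weaken binding to CNOT3, and CNOT3 is part of the CCR4-NOT complex that trims mRNA tails and also acts in transcription. The 10 genes are known mainly from liver, lens, heart, skin, secretory epithelium and pigment cells.

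The share of probes well above background was 54.6% to 59.7% per array, no spot (0) was saturated, and arrays of a group correlated at r = 0.991 to 0.995 across genes, which are not independent replicates. The Ebf1 probe read 10.44, 10.33 and 10.15 with Ebf1-H240A, 10.18, 10.17 and 10.19 with Ebf1wt, and 10.10 and 10.19 with Empty (log2 signal), so it was not used to check the labels or the amounts of the introduced proteins. In these bulk samples, fewer cells of a type and less RNA per cell cannot be told apart.

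Both proteins were accompanied by higher signal of most of the 10 genes. The mean of the 2 proteins minus Empty was also fitted. With 3 arrays per protein, its error in the fit is uncorrelated with that of the difference that chose the genes. The mean still uses the protein arrays that chose the genes. A gene dim with Empty and picked for a large difference must be bright with a protein, which raises this mean. The choice therefore favours a rise, and the counts by this mean are a description. By the mean minus Empty, 9 of 10 genes rose (limma, adjusted p under 0.05 over all genes tested), and the exception was Mc1r. The share of all genes tested that rose was 21.0%. The median difference was 3.18 on the log2 scale, against -0.02 for all genes. Ebf1-H240A against Empty gave 8 higher genes of 10 and 0 lower, with a background of 21.6% higher, and Ebf1wt against Empty gave 9 higher and 0 lower, with a background of 17.2%. With each protein taken separately, 7 of the 10 genes were called higher in both comparisons, against 15.2% of all genes. All 10 genes passed the filter of 2 arrays well above background. Aldh1a3 passed it through the Ebf1wt arrays alone, and Orm1 and Scgb1c1 through arrays of the proteins alone. These 3 genes had to be higher there, so the counts describe the set. The adjusted p-values printed below for these 3 genes against Empty are likewise descriptions and no support for a rise. The 2 comparisons of single proteins with Empty share the Empty arrays with each other and the protein arrays with the choice of the genes, so their directions are partly tied to that choice. All signals below are log2 of the scaled intensity, and levels of different probes are not compared.

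**Figure D1:**
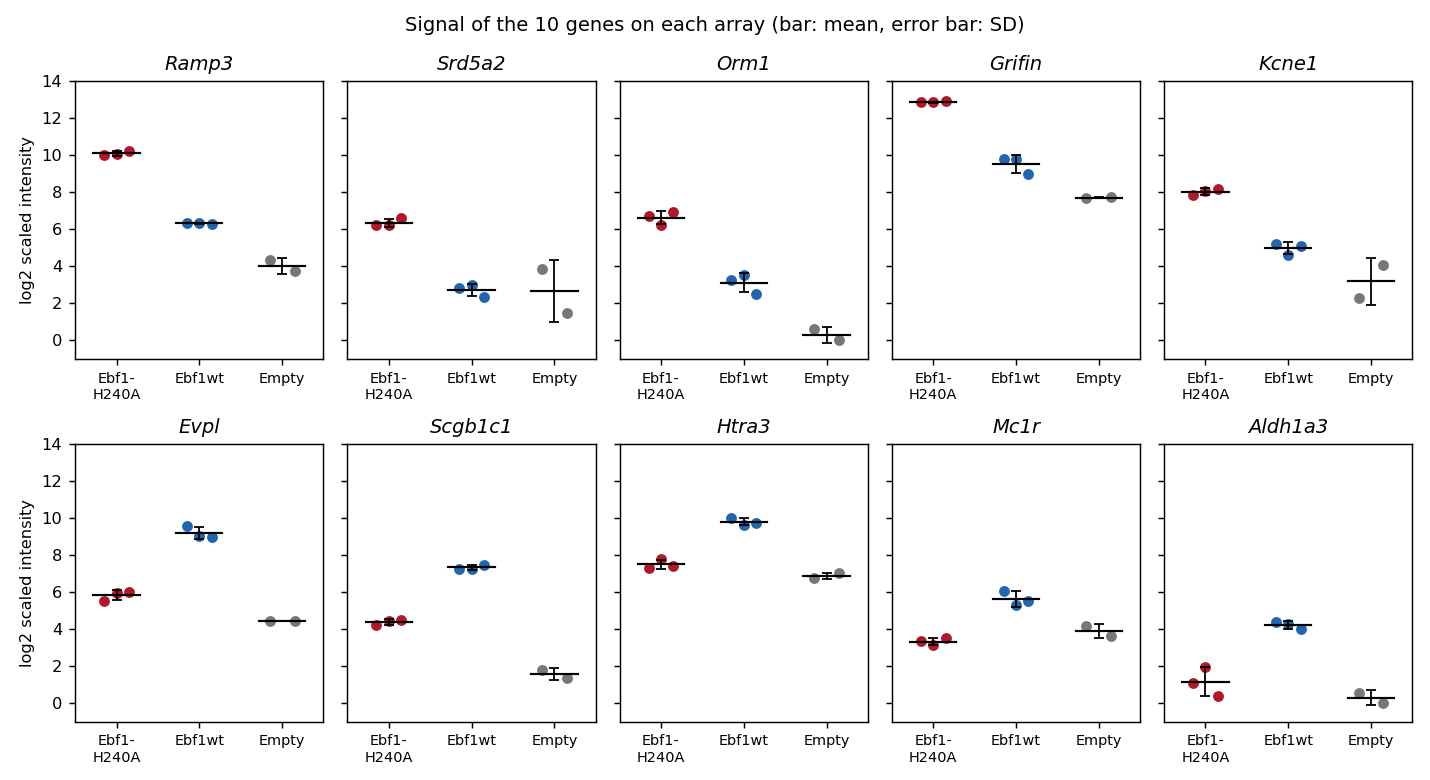
Log2 scaled intensity (vertical axis) of each gene on the 3 Ebf1-H240A, 3 Ebf1wt and 2 Empty arrays, with 1 point per array, a bar at the group mean and an error bar of 1 SD. The top row holds the genes picked as higher with Ebf1-H240A and the bottom row those picked as higher with Ebf1wt; in no panel do the arrays of the 2 proteins overlap, as the choice of the genes required.

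Of the 5 genes picked as higher with Ebf1-H240A, Ramp3 encodes an accessory protein that turns the calcitonin receptor-like receptor into a receptor for adrenomedullin. Ramp3 read 10.00, 10.07 and 10.25 with Ebf1-H240A, 6.33, 6.36 and 6.30 with Ebf1wt, and 4.34 and 3.73 with Empty. The 3 groups were fully separate, with Ebf1wt between the other two. Ramp3 rose 67.2-fold with Ebf1-H240A (6.07 ± 0.17 SE on the log2 scale, n = 3 and 2, limma adjusted p = 2.12e-06) and 4.9-fold with Ebf1wt (2.29 ± 0.17, limma adjusted p = 0.000117), and the 2 proteins differed 13.7-fold. The Ramp3 probe lies at chr11:6577299-6577358 of mm9, the build of the array annotation.

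Grifin encodes a galectin-related protein that was described in the rat lens and has lost the sugar binding of its relatives. Its signal was the most even of these 5 genes with Ebf1-H240A, at 12.85, 12.85 and 12.90, while Ebf1wt gave 9.82, 9.79 and 8.99 and Empty 7.68 and 7.72. Grifin rose 35.9-fold with Ebf1-H240A (5.16 ± 0.24 SE, limma adjusted p = 1.24e-05) and 3.57-fold with Ebf1wt (1.84 ± 0.24, limma adjusted p = 0.00137), a difference of 10.1-fold between the proteins. The array Ebf1wt 3 was lower than the other two of its group but still above both Empty arrays.

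Orm1 encodes orosomucoid, a plasma glycoprotein of the acute phase response that the liver secretes. With Ebf1-H240A it read 6.72, 6.23 and 6.93, with Ebf1wt 3.28, 3.53 and 2.53, and with Empty 0.61 and 0.00. Both Empty arrays and 1 of 3 Ebf1wt arrays were not well above background, so folds against Empty are bounds. These rough bounds hold for the main processing only, and the Ebf1wt mean includes its dim array. Orm1 rose at least 31.1-fold with Ebf1-H240A (limma adjusted p = 2.6e-05) and at least 2.72-fold with Ebf1wt (limma adjusted p = 0.00114). The call with Ebf1wt was lost with normexp background correction (0.27, limma adjusted p = 0.138), in the series' value table (0.53, limma adjusted p = 0.105) and with a floor of 16 (0.00). The call with Ebf1-H240A was kept in all 3 settings, but its difference of 6.32 shrank to 1.62, 3.02 and 2.62 on the log2 scale.

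Kcne1 encodes a small subunit that slows the opening of the KCNQ1 potassium channel. The arrays gave 7.84, 8.07 and 8.18 with Ebf1-H240A, 5.22, 4.63 and 5.10 with Ebf1wt, and 2.28 and 4.10 with Empty, where only Empty 2 was well above background. Kcne1 rose 28.7-fold with Ebf1-H240A (4.84 ± 0.49 SE, limma adjusted p = 0.000346), a fold of 15.3 without Empty 1 and 54.0 without Empty 2, and 3.46-fold with Ebf1wt (1.79 ± 0.49, limma adjusted p = 0.0264). The Ebf1wt call was lost without Ebf1wt 1 (1.67, limma adjusted p = 0.0696), without Ebf1wt 3 (1.73, limma adjusted p = 0.0653) and without Empty 1 (0.88, limma adjusted p = 0.0527). 

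Srd5a2 encodes a reductase that turns testosterone into dihydrotestosterone. Its signal was 6.23, 6.21 and 6.60 with Ebf1-H240A, 2.83, 3.01 and 2.34 with Ebf1wt, and 3.85 and 1.49 with Empty. The Ebf1-H240A arrays stood above all others, while the Ebf1wt arrays lay between the 2 Empty arrays. The probe was well above background on 1 of the 2 Empty and 2 of the 3 Ebf1wt arrays. Srd5a2 rose 12.8-fold with Ebf1-H240A (3.67 ± 0.62 SE, limma adjusted p = 0.0032), a fold of 28.9 without Empty 1 and 5.63 without Empty 2, and its difference with Ebf1wt was 0.05 ± 0.62 (limma adjusted p = 0.958). That difference was 1.24 without Empty 1 (limma adjusted p = 0.0284) and -1.13 without Empty 2 (limma adjusted p = 0.0357). The mean of the proteins against Empty (1.86 ± 0.56, limma adjusted p = 0.0311) was no longer called without Empty 2 (0.68, limma adjusted p = 0.105) or without any 1 of the 3 Ebf1-H240A arrays, Ebf1wt 1 and Ebf1wt 2 (1.79 to 1.90).

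The probes of Orm1, Srd5a2 and Grifin are printed here because each spans an intron, as its mm9 coordinates are farther apart than its 60 bases. They match spliced RNA.
Orm1 (chr4:63006483-63007090): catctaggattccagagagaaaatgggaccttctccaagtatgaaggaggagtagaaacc
Srd5a2 (chr17:74367066-74370736): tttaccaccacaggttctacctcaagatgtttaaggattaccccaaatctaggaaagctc
Grifin (chr5:141039628-141040412): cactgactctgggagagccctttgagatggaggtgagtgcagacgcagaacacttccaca

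Of the 5 genes picked as higher with Ebf1wt, Evpl encodes envoplakin, which builds the cornified envelope of keratinocytes together with periplakin. Evpl read 5.53, 5.92 and 6.02 with Ebf1-H240A, 9.55, 9.01 and 8.96 with Ebf1wt, and 4.46 and 4.45 with Empty. No 2 groups overlapped. Evpl rose 2.58-fold with Ebf1-H240A (1.37 ± 0.21 SE, limma adjusted p = 0.00222) and 26.3-fold with Ebf1wt (4.72 ± 0.21, limma adjusted p = 1.26e-05), and was 10.2-fold lower with Ebf1-H240A than with Ebf1wt.

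Scgb1c1 encodes a secretoglobin, one of a family of small secreted proteins of mucosal epithelium. Signals of 4.20, 4.45 and 4.50 with Ebf1-H240A and 7.26, 7.24 and 7.48 with Ebf1wt stood against 1.79 and 1.35 with Empty, where the probe was not well above background. It rose at least 6.58-fold with Ebf1-H240A (limma adjusted p = 2.63e-05) and at least 50.6-fold with Ebf1wt (limma adjusted p = 1.9e-06), and was 7.69-fold lower with Ebf1-H240A than with Ebf1wt. These rough bounds hold for the processed signal. On the log2 scale the differences from Empty were 0.56 and 2.01 with normexp background correction. In the series' value table they were 1.11 and 3.46, and all 4 were called. With a floor of 16 they were 0.38 with Ebf1-H240A and 3.33 with Ebf1wt.

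Htra3 encodes a secreted serine protease that can dampen TGF-beta signalling. It gave 7.31, 7.77 and 7.38 with Ebf1-H240A, 10.00, 9.64 and 9.71 with Ebf1wt, and 6.75 and 7.00 with Empty. The Ebf1wt arrays were far above the rest, and the Ebf1-H240A arrays were just above Empty. Htra3 rose 7.51-fold with Ebf1wt (2.91 ± 0.18 SE, limma adjusted p = 4.7e-05). The increase of 1.53-fold with Ebf1-H240A (0.61 ± 0.18, limma adjusted p = 0.028) was not called without Ebf1-H240A 2 (0.47, limma adjusted p = 0.0519), without Empty 1 (0.49, limma adjusted p = 0.153) or without Empty 2 (0.74, limma adjusted p = 0.0537), nor with median scaling (0.47, limma adjusted p = 0.067) or in the series' value table (0.45, limma adjusted p = 0.0779).

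Mc1r encodes the melanocortin receptor that sets pigment type in melanocytes. Its signal was 3.33, 3.13 and 3.52 with Ebf1-H240A, 6.08, 5.28 and 5.50 with Ebf1wt, and 4.18 and 3.61 with Empty. All 3 Ebf1-H240A arrays lay below both Empty arrays, and all 3 Ebf1wt arrays above them, which held for no other of the 10 genes. The share of all genes with this order was not counted, and Tubb3, described below, had it too. Mc1r rose 3.31-fold with Ebf1wt (1.73 ± 0.27 SE, limma adjusted p = 0.00295), whereas the difference with Ebf1-H240A did not pass (-0.57 ± 0.27, limma adjusted p = 0.136) and was 0.09 with normexp background correction.

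Aldh1a3 encodes an enzyme that makes retinoic acid from retinaldehyde. Only the Ebf1wt arrays were well above background, with 4.40, 4.27 and 3.99. The other arrays read 1.11, 1.96 and 0.39 with Ebf1-H240A, and 0.57 and 0.00 with Empty. Aldh1a3 rose at least 5.87-fold with Ebf1wt over Empty, and Ebf1wt was at least 5.53-fold above Ebf1-H240A. As the gene passed the filter through the Ebf1wt arrays alone, the adjusted p of this rise over Empty (limma, 0.000626) is a description. With Ebf1-H240A, where no fold can be given, the fit gave 0.87 ± 0.43 (limma adjusted p = 0.149), and 1.25 without Ebf1-H240A 3 (limma adjusted p = 0.03). With a floor of 16 the Ebf1wt difference was 0.22 (limma adjusted p = 0.192).

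Among the 16322 genes, the 5 picked as higher with Ebf1-H240A ranked 2 to 7 in that direction of the difference between the proteins, and the 5 picked as higher with Ebf1wt ranked 4 to 10 in theirs. Kcne1, the last of the first 5, differed by 3.05, and Klra2, next in rank, by 3.04. Mc1r, the last of the others, differed by -2.29, and Parvb, next in rank, by -2.16. On each slide taken alone, 10 of 10 genes kept their direction. This had to follow, because no arrays of the 2 proteins overlapped in these genes. For context, 6.35% of all genes were called between the 2 proteins, 16.9% had every Ebf1-H240A array above every Ebf1wt array, as the first 5 genes did, and 12.9% had the reverse, as the other 5 did. The differences against Empty ran from 3.67 to 6.32 with Ebf1-H240A and from 0.05 to 2.80 with Ebf1wt in the first 5 genes. They ran from -0.57 to 2.81 with Ebf1-H240A and from 1.73 to 5.76 with Ebf1wt in the other 5.

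**Figure D2:**
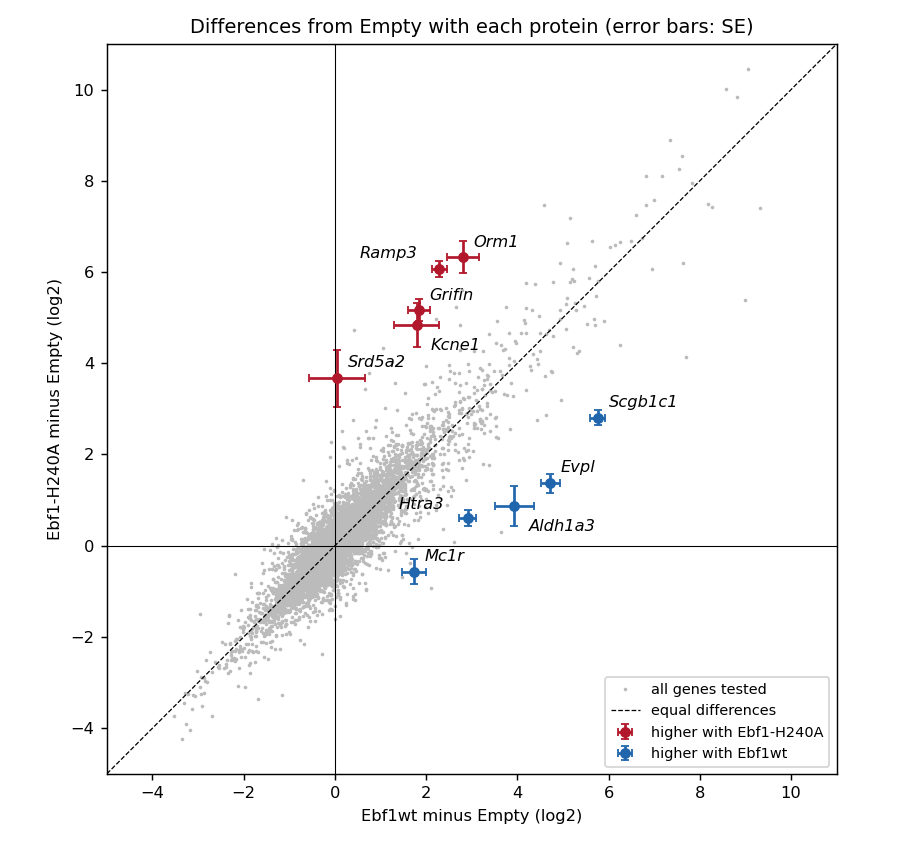
Log2 difference from Empty with Ebf1-H240A (vertical axis) against that with Ebf1wt (horizontal axis) for the 16322 genes tested (grey) and the 10 genes (coloured, with SE). The dashed line marks equal differences; both axes use the same Empty arrays, so the spread of the grey points along the line is in part shared. Srd5a2 lies at 3.67 and 0.05, and Scgb1c1 at 2.81 and 5.76.

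In mm9 the Kcne1 probe that stands for the gene lies at chr16:92348745-92348804, that of Evpl at chr11:116081921-116081980, of Scgb1c1 at chr7:148032087-148032146, of Htra3 at chr5:35994763-35994822, of Mc1r at chr8:125932417-125932476 and of Aldh1a3 at chr7:73535785-73535844. Exon and UTR annotation of that build was not used here. The 10 genes had 15 probes, of which 12 were well above background on at least 2 arrays. Evpl and Htra3 each had a second such probe, printed here because it repeats the measurement at another place in the transcript. Both are shown as designed, on mm9.
Evpl second probe (chr11:116082184-116082243): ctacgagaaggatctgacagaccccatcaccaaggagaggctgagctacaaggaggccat
Htra3 second probe (chr5:36006658-36006717): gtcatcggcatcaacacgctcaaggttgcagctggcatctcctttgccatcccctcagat
The second Evpl probe read 3.02, 2.85 and 3.07 with Ebf1-H240A, 6.55, 6.02 and 6.30 with Ebf1wt, and 1.59 and 2.69 with Empty. Its difference between the proteins was -3.31, against -3.35 for the brighter probe. The second Htra3 probe read 6.67, 6.93 and 6.69 with Ebf1-H240A, 8.51, 8.11 and 7.99 with Ebf1wt, and 6.28 and 6.29 with Empty, and its difference between the proteins was -1.44, against -2.30. In the fit over probes neither second probe passed with Ebf1-H240A against Empty (0.84, limma adjusted p = 0.0657 for Evpl and 0.47, limma adjusted p = 0.051 for Htra3), and both passed with Ebf1wt (4.15 and 1.91). The remaining Htra3 probe and the second probes of Kcne1 and Aldh1a3 were well above background on 0 arrays.

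**Figure D3:**
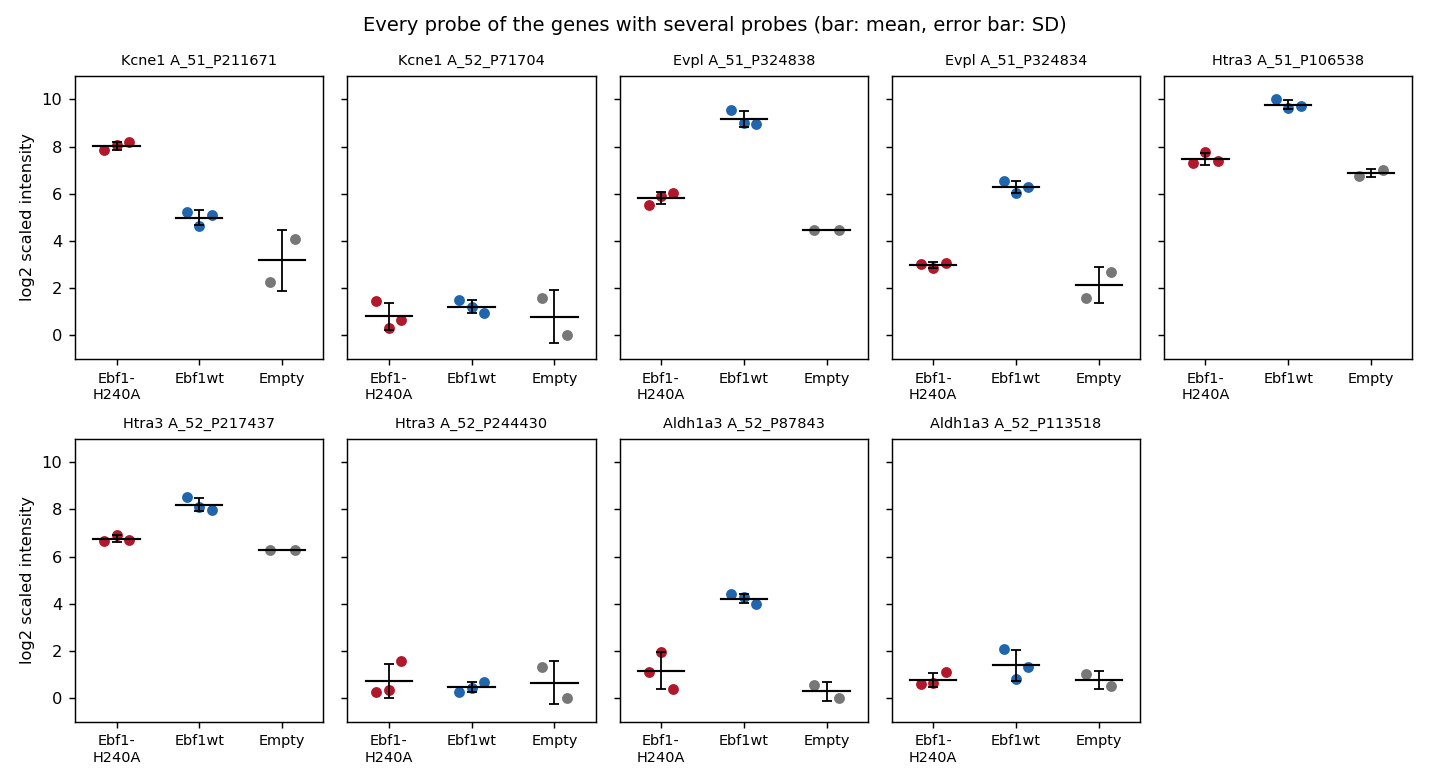
Log2 scaled intensity on each array (vertical axis) for every probe of Kcne1, Evpl, Htra3 and Aldh1a3, with the mean and SD of each group. The 2 probes of Evpl and the first 2 of Htra3 have the same order of groups, and the 3 probes near 0 to 2 were well above background on no array.

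Promoters were looked up in RefSeq (GRCm38.p6) and matched for 6 of the 10 genes, as 250 bases before to 50 after the start. The letters CCCNNGGG, the core of the palindrome known for EBF1, were searched on both strands, alone and with T before and A after. The flanked form, which contains the core, was in 0 of 6, and in 1.06% of 27025 promoters (287). The core was in 1 of 6, Scgb1c1, and in 15.4% of the 27025 promoters searched (4159), which do not cover every chromosome. Shown are the 250 bases before the start of Scgb1c1, with the match in capitals and beginning 60 bases before the start, and of Ramp3, the gene with the largest difference among these 10, which has none.
Scgb1c1 (chr7:140845315-140845564, plus strand): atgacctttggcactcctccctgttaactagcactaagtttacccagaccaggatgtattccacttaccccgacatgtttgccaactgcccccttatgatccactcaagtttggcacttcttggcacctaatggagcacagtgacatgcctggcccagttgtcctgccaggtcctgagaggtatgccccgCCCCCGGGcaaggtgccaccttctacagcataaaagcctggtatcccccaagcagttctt
Ramp3 (chr11:6658283-6658532, plus strand): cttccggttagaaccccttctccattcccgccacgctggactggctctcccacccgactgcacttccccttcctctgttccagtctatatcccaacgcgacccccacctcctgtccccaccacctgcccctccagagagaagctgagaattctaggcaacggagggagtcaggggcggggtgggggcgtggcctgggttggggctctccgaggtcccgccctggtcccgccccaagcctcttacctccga
The match is a description of letters and not of binding.

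The relatives of the 10 genes were followed as 10 lists. Among relatives of Orm1, most rose with both proteins: of 10 acute phase genes tested (19 listed), 8 rose and 1 fell with Ebf1-H240A, and 7 rose and 1 fell with Ebf1wt. Of all genes, 21.6% were higher and 23.0% lower with Ebf1-H240A, and 17.2% higher and 21.2% lower with Ebf1wt. The median differences of the acute phase genes were 2.17 and 1.62, against 0.00 and -0.04 for all genes. Between the proteins 3 of these 10 genes were called higher with Ebf1-H240A and 1 lower, against 6.35% of all genes called. The lower one was Serpina3g (-0.27 ± 0.05, limma adjusted p = 0.0263). Hp (-0.29) and Cp (-0.36) also read lower with Ebf1-H240A than with Ebf1wt, without a call. Orm2, another orosomucoid gene, read 6.95, 6.73 and 7.26 with Ebf1-H240A, 4.38, 4.40 and 3.92 with Ebf1wt, and 2.53 and 1.50 with Empty, where it was not well above background. Orm2 was higher with Ebf1-H240A than with Ebf1wt by 2.74 ± 0.29 (limma adjusted p = 0.00479, 6.7-fold) and rose at least 31.1-fold with Ebf1-H240A and at least 4.65-fold with Ebf1wt over Empty. With a floor of 16 the Ebf1wt call of Orm2 was lost (0.26, limma adjusted p = 0.373). Orm3 rose with both (3.89 and 3.18), and its difference between the proteins was 0.71 (limma adjusted p = 0.124). That difference was called with normexp background correction (0.51, limma adjusted p = 0.00485), in the series' value table (0.67, limma adjusted p = 0.00829), with a floor of 16 (limma adjusted p = 0.0264), and without either Empty array or with only the 2 protein groups in the fit (limma adjusted p = 0.0376 each). Saa3, a serum amyloid gene, rose by 2.19 with Ebf1-H240A and 1.29 with Ebf1wt, and differed between the proteins by 0.90 ± 0.17 (limma adjusted p = 0.0284). Leaving out any 1 of Ebf1-H240A 1 (0.79), Ebf1-H240A 3 (0.82) and the 3 Ebf1wt arrays (0.87 to 0.94) ended the call.

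Since orosomucoid genes are near copies of each other, their probes are shown.
Orm2 (chr4:63024979-63025038): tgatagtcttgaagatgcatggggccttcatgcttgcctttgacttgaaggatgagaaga
Orm3 (chr4:63018910-63020393): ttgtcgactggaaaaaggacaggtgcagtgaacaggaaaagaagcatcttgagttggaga
At the best ungapped alignment the Orm1 probe printed above matched 24 of 56 bases of the Orm2 probe and 22 of 58 of the Orm3 probe, so the 3 probes read different stretches. How far each probe binds RNA of the other copies was not tested.

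Evpl also had a relative that moved with it. Ppl, which encodes its partner periplakin, read 7.06, 7.36 and 7.20 with Ebf1-H240A, 9.06, 8.43 and 8.47 with Ebf1wt, and 1.1 and 0.93 with Empty, where it was not well above background. Ppl rose at least 46.6-fold with Ebf1-H240A and at least 127-fold with Ebf1wt, and was lower with Ebf1-H240A than with Ebf1wt by 1.45 on the log2 scale (-1.45 ± 0.18 SE, limma adjusted p = 0.00853). Of 10 plakin, desmosome and envelope genes tested (18 listed), 5 rose and 1 fell with Ebf1-H240A, and 5 rose and 2 fell with Ebf1wt. Of all genes, 21.6% rose and 23.0% fell with Ebf1-H240A, and 17.2% rose and 21.2% fell with Ebf1wt. The median differences of the 10 genes in this list were 0.30 and 0.45. Dsp, the desmosomal plakin desmoplakin, fell by 1.43 with Ebf1-H240A and fell by 0.77 with Ebf1wt (log2). The difference between the proteins (-0.66 ± 0.11, limma adjusted p = 0.0211) was not called without any 1 of Ebf1-H240A 1, Ebf1-H240A 3, Ebf1wt 1 and Ebf1wt 2 (-0.59 to -0.66).

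**Figure D4:**
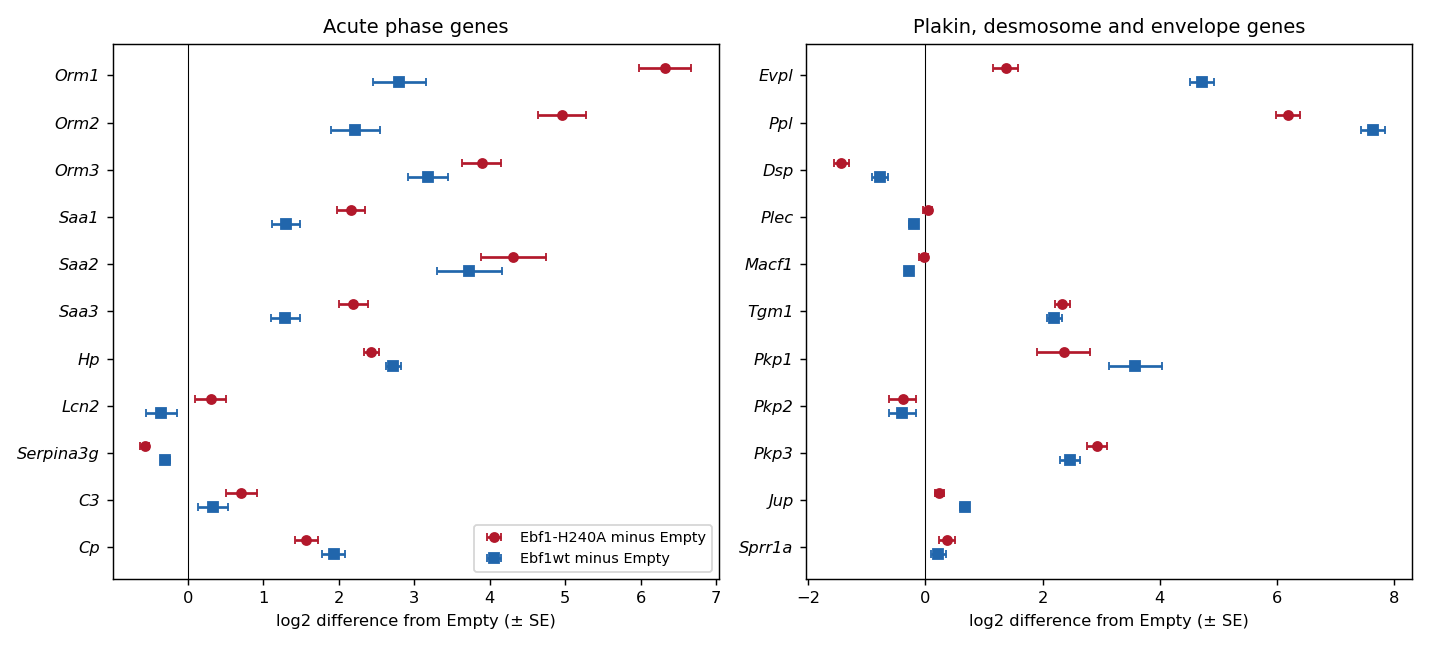
Log2 difference from Empty with its SE (horizontal axis) for Orm1 and 10 acute phase genes (left) and for Evpl and 10 plakin, desmosome and envelope genes (right), with Ebf1-H240A as circles and Ebf1wt as squares. Orm1 and Orm2 stand higher with Ebf1-H240A, Evpl and Ppl higher with Ebf1wt, and Dsp lies below 0 with both.

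In the other 8 lists 2 of 52 genes tested were called between the proteins, Ramp1 and Tgfbr1, which is 3.85%, against 6.35% of all genes. Of these 52 genes 23.1% were higher and 25.0% lower with Ebf1-H240A than with Empty, against 21.6% and 23.0% of all genes, and 17.3% were higher and 25.0% lower with Ebf1wt, against 17.2% and 21.2%. These shares lie near those of all genes. Among the 4 calcitonin family genes tested, 0 rose and 2 fell with Ebf1-H240A, and 1 rose and 2 fell with Ebf1wt. Ramp1, the gene that rose with Ebf1wt (0.70 ± 0.08, limma adjusted p = 0.000807), was lower with Ebf1-H240A than with Ebf1wt (-0.52 ± 0.07, limma adjusted p = 0.0117), the opposite direction to Ramp3. Of 8 galectins tested, 5 rose and 1 fell with Ebf1-H240A and 4 rose and 2 fell with Ebf1wt, and 0 were called between the proteins. Lgals4, chosen here after its values were seen, rose by 2.96 and 3.12. Of 4 potassium channel genes tested, 0 rose and 2 fell with each protein, and these were Kcne3 (-2.75 with Ebf1-H240A and -3.02 with Ebf1wt) and Kcnh2 (-2.69 and -2.55), opposite to Kcne1. Of 8 HtrA and TGF-beta genes tested, 2 rose and 3 fell with Ebf1-H240A and 2 rose and 2 fell with Ebf1wt. Tgfbr1, a TGF-beta receptor, was lower with Ebf1-H240A than with Ebf1wt (-0.45 ± 0.07, limma adjusted p = 0.0158), a call lost without Ebf1-H240A 1 (-0.45, limma adjusted p = 0.0598) and without Ebf1-H240A 3 (-0.44, limma adjusted p = 0.0596). Steroid genes (8 tested) gave 1 higher and 2 lower with Ebf1-H240A and 0 and 2 with Ebf1wt. Retinoic acid genes (12 tested) gave 2 and 3 with Ebf1-H240A and 1 and 2 with Ebf1wt, melanocortin and pigment genes (6) 1 and 0 with Ebf1-H240A and 1 and 1 with Ebf1wt, and secretoglobins (2) 1 and 0 with Ebf1-H240A and 0 and 0 with Ebf1wt. In these last 4 lists 0 genes were called between the proteins by limma.

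The nearest tested genes on each side of each of the 10 genes, in the gene order of GRCm38.p6, had 0 to 6 untested genes between. Between the proteins 7 of 20 such neighbours were called, against 6.35% of all genes, and each of the 7 differed in the direction of its gene. Tubb3, a neuronal tubulin gene directly after Mc1r, read 6.94, 7.46 and 7.43 with Ebf1-H240A, 9.57, 9.12 and 9.19 with Ebf1wt, and 7.75 and 7.54 with Empty. As for Mc1r, its Ebf1wt arrays stood above all others, and Ebf1-H240A minus Ebf1wt was -2.02 ± 0.18 (limma adjusted p = 0.00297). The Tubb3 probe begins 13224 bases after the Mc1r probe ends in mm9, on the same strand. Odf3, after Scgb1c1 (-0.96 ± 0.09, limma adjusted p = 0.00297), and Sh3tc1, after Htra3 (-0.90 ± 0.07, limma adjusted p = 0.00204), were lower with Ebf1-H240A than with Ebf1wt. Higher with Ebf1-H240A were Xdh, which encodes xanthine dehydrogenase (1.19 ± 0.09, limma adjusted p = 0.00155), and Memo1 (0.50 ± 0.05, limma adjusted p = 0.00403), on either side of Srd5a2. The same held for Lfng, a Notch-modifying glycosyltransferase gene after Grifin (0.78 ± 0.10, limma adjusted p = 0.0101), and Col27a1, a collagen gene before Orm1 (0.73 ± 0.14, limma adjusted p = 0.0305). The Col27a1 call was lost without any 1 of the 6 protein arrays (0.63 to 0.81) and with the slide as a block (0.68, limma adjusted p = 0.0626). The neighbours of Ramp3, Kcne1, Evpl and Aldh1a3 were not called.

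**Figure D5:**
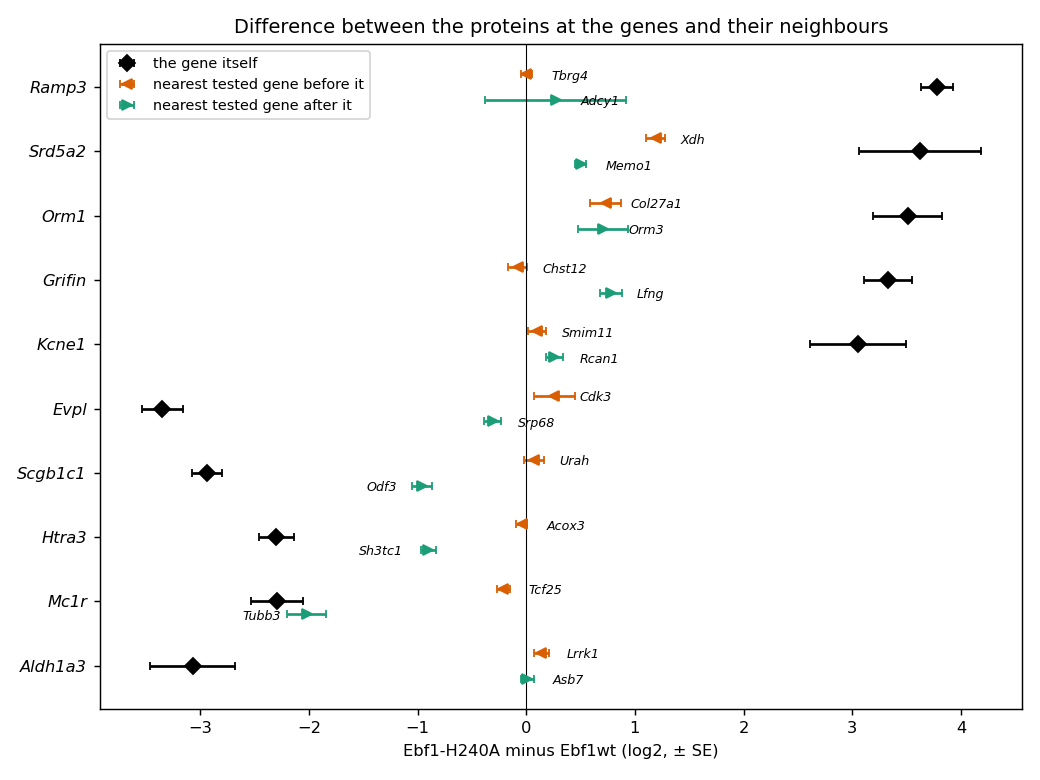
Ebf1-H240A minus Ebf1wt on the log2 scale with its SE (horizontal axis) for each of the 10 genes (diamonds) and the nearest tested gene before and after it (triangles). The diamonds lie beyond 2 on either side because this difference chose the genes; Tubb3 at -2.02 lies nearest to its gene.

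The genes whose 8 values, each minus the gene's Empty mean, lay closest to those of a member by Euclidean distance were taken from 13055 named genes. Likeness of this kind is a description of these 8 arrays. Mc1r had the closest, Tubb3 (0.72) and Ptgds (0.97), and Htra3 came next with Nxnl2 (1.15) and Mapk8ip1 (1.23). Grifin lay close to Orm2 (1.15) and Prg4 (1.64), Ramp3 to Orm1 (1.29) and Cidec (1.50), and Orm1 to Ramp3 (1.29) and Cidec (1.72). Kcne1 was nearest to Grifin (1.67) and Sds (2.03), and Scgb1c1 to Flywch2 (1.73) and Mylk (2.0). Srd5a2 was nearest to Gcgr (1.77) and Mrln (2.15), Evpl to Aldh1a3 (2.08) and Myl4 (2.47), and Aldh1a3 to Evpl (2.08) and Htra3 (2.11). Within the 10, the nearest pairs therefore joined genes picked for the same direction, which the choice itself favours.

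Of the 9 progenitor genes listed, 8 were tested and Gata2 was well above background on 0 arrays. Of the 8, 1 rose and 5 fell with Ebf1-H240A, and 2 rose and 3 fell with Ebf1wt. Of all genes, 21.6% rose and 23.0% fell with Ebf1-H240A, and 17.2% rose and 21.2% fell with Ebf1wt. Their summed scaled intensity was 23100 to 23900 with Ebf1-H240A, 20000 to 21200 with Ebf1wt and 33700 to 35500 with Empty. Kit, the receptor by which the cells were isolated, differed by -1.14 with Ebf1-H240A and -0.79 with Ebf1wt, while Lmo2, a transcriptional cofactor gene of blood progenitors, differed by 1.68 and 1.15. Between the proteins 4 of the 8 were called, 2 in each direction, against 6.35% of all genes. Cd34, a surface antigen of progenitors, was higher with Ebf1-H240A than with Ebf1wt (0.75 ± 0.09, limma adjusted p = 0.00662) and below Empty with both (-1.17 and -1.93). Flt3, a cytokine receptor gene, was lower with Ebf1-H240A than with Ebf1wt (-0.66 ± 0.09, limma adjusted p = 0.0109), and its differences from Empty (-0.32 and 0.34) lost their calls when most single arrays were left out. Markers of tissues in which the 10 genes are known were checked beside them. Of the hepatocyte genes, Alb, Afp, Apoa1, Apoa2, Ttr, Serpina1b and Fgb were well above background on 0 of 8 arrays, and the summed scaled intensity of the 2 tested ones (9 listed) was 81.0 to 85.8 with Ebf1-H240A, 184 to 216 with Ebf1wt and 585 to 590 with Empty. The brighter of the 2, Ahsg, a gene for the plasma protein fetuin A, was lower with Ebf1-H240A than with Ebf1wt (-1.69 ± 0.08, limma adjusted p = 0.000611) and below Empty with both (-3.37 and -1.68). Of the melanocyte genes, Tyr, Tyrp1, Dct and Mlana were well above background on 0 arrays, and Pmel was the only one tested of 5. Pmel rose by 0.32 with Ebf1-H240A (limma adjusted p = 0.0411) and by 0.53 with Ebf1wt (limma adjusted p = 0.00676), and was not called between the proteins (-0.21). Epithelial genes (7 of 9 tested) summed to 985 to 1250 with Ebf1-H240A, 1320 to 1460 with Ebf1wt and 2070 to 2090 with Empty, and Grhl2 and Esrp1 were well above background on 0 arrays. Cdh1 carried nearly all of these sums and was below Empty with both (-0.94 and -0.58). Of the 7 genes, 1 rose and 2 fell with each protein, beside the shares of all genes given above. Epcam, an epithelial adhesion gene, was lower with Ebf1-H240A than with Ebf1wt (-0.98 ± 0.21, limma adjusted p = 0.0441), and leaving out any 1 of the 6 protein arrays ended that call (-0.96 to -1.02). Over Empty, where it was not well above background, Epcam rose at least 2.8-fold with Ebf1-H240A and at least 5.55-fold with Ebf1wt. That Ebf1-H240A call was lost with normexp background correction (0.29, limma adjusted p = 0.0599) and with a floor of 16 (0.00).

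Markers of stroma, the type of the OP9 feeder, were read in the same way. Of 10 stromal genes tested (12 listed), 6 rose and 0 fell with Ebf1-H240A, and 4 rose and 0 fell with Ebf1wt, with median differences of 0.57 and 0.59. Of all genes, 21.6% rose and 23.0% fell with Ebf1-H240A, and 17.2% rose and 21.2% fell with Ebf1wt. These shares are also the background of the granulocyte and erythroid counts below. Their sums were 13500 to 16700 with Ebf1-H240A, 16700 to 21400 with Ebf1wt and 14200 to 14800 with Empty, but Thy1, which lymphoid cells also express, made up 82.0% to 85.1%, 88.4% to 89.5% and 93.1% to 93.3% of them. Without Thy1 the other 9 genes summed to 2430 to 2520 with Ebf1-H240A, 1940 to 2250 with Ebf1wt and 950 to 1020 with Empty, so the 3 groups did not overlap. Most of each protein sum was Pdgfrb, at 10.69, 10.60 and 10.46 with Ebf1-H240A, 10.09, 10.20 and 10.23 with Ebf1wt, and 8.58 and 8.69 with Empty. The separation of the 2 proteins in this sum therefore rests on Pdgfrb. The median difference between the proteins was 0.01, and 1 of the 10 genes was called, against 6.35% of all genes. This was Pdgfrb, a growth factor receptor gene (0.41 ± 0.08, limma adjusted p = 0.0307), which stood above Empty with both (1.95 and 1.54). Leaving out any 1 array except Ebf1-H240A 3 ended the Pdgfrb call between the proteins (0.36 to 0.44). Granulocyte and monocyte genes (6 of 10 tested) gave 5 higher and 1 lower with Ebf1-H240A, and 2 higher and 1 lower with Ebf1wt. They summed to 28600 to 37600 with Ebf1-H240A, 17300 to 23300 with Ebf1wt and 18000 to 22100 with Empty, mostly Lyz2. Mpo, the myeloperoxidase gene, was higher with Ebf1-H240A than with Ebf1wt (1.47 ± 0.20, limma adjusted p = 0.0117) and below Empty with both (-1.49 and -2.95). S100a9, a neutrophil and monocyte gene, read 5.23, 4.97 and 6.64 with Ebf1-H240A, 0.52, 2.64 and 0.76 with Ebf1wt, and 0.70 and 1.07 with Empty, and was at least 9.79-fold higher with Ebf1-H240A than with Ebf1wt (limma adjusted p = 0.0152). S100a9 passed the filter through the Ebf1-H240A arrays alone, so it had to be higher there and its adjusted p is a description. That call was lost without Ebf1wt 1 (3.92, limma adjusted p = 0.0582) and with the replicate number as a block (4.31, limma adjusted p = 0.0578). It was also lost with a floor of 16, where the log2 difference shrank to 1.61 (limma adjusted p = 0.0953). Elane, Ngp and Camp were well above background on 0 of 8 arrays. Erythroid genes (4 of 7 tested) gave 1 higher and 2 lower with each protein, the higher one being Alas2, and summed to 834 to 922 with Ebf1-H240A, 1200 to 1330 with Ebf1wt and 8280 to 9220 with Empty. Hbb-bt, an adult beta-globin gene, carried most of that sum and was lower with Ebf1-H240A than with Ebf1wt (-0.45 ± 0.07, limma adjusted p = 0.0144), a call lost without any 1 of Ebf1-H240A 1, Ebf1-H240A 3, Ebf1wt 1 and Ebf1wt 2 (-0.41 to -0.46). The part of these markers in the differences of the 10 genes was not tested.

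Arrays 1 and 2 of Ebf1-H240A, Ebf1wt 2 and Empty 1 shared a slide, and the other 4 shared the second. Within slide 1 and slide 2, Ebf1-H240A minus Empty was 5.70 and 6.51 for Ramp3, 2.36 and 5.11 for Srd5a2, 5.86 and 6.93 for Orm1, 5.16 and 5.18 for Grifin, and 5.68 and 4.08 for Kcne1. Ebf1wt minus Empty was 4.55 and 4.80 for Evpl, 5.45 and 6.02 for Scgb1c1, 2.89 and 2.86 for Htra3, 1.1 and 2.18 for Mc1r, and 3.69 and 4.20 for Aldh1a3. Srd5a2 with Ebf1wt was the gene that turned between slides, at -0.84 and 1.09. With the slide as a block no call of the 10 genes against Empty changed. Between the proteins, the values within slides 1 and 2 were 2.44 and 3.11 for Orm2, -1.22 and -1.57 for Ppl, and -1.92 and -1.96 for Tubb3, none of which was called with 4 arrays in the fit.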

How the data were processed

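Per the file headers, the scanner files hold intensity values made with Agilent Feature Extraction 10.5.1.1 (version per the submitters' processing notes): a processed signal after background correction and detrending, raw means, local backgrounds, and flags of 0 or 1, on mm9 annotation. The deposited value table holds log2 values of the same arrays, whose scale was read from the values; the sources used here do not give its normalization and centring. Column medians were 4.90 to 4.93, and its values correlated with the scanner log2 values at r = 0.972 to 0.979. It served as an alternative.

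Processed intensities of 43379 non-control spots were scaled to a common 75th percentile (before scaling 232 to 326), set to at least 1 and turned into log2. Spots flagged as outliers were dropped, and repeat spots were averaged over 41174 probes. Probes well above background on at least 2 arrays were kept (25025, of which 24 lacked a value on some array and were left out). The brightest kept probe stood for its gene. A gene with no Empty array well above background passed through arrays of the proteins alone, so its rise over Empty is a description. Names were updated with RefSeq (GRCm38.p6): 27897 probes matched by accession, 5450 by symbol, 370 by older symbol, and 7457 kept the file's name. The fit used limma 3.58.1 in R 4.3.3 (lmFit, eBayes) over all 8 arrays without covariate, with 5 residual and 1.8 prior degrees of freedom and Benjamini-Hochberg adjustment over 16322 genes. The 8 arrays limit the precision.

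A fold is written "at least" where no array of the dim group was well above background. It sets the bright group's mean against the dim arrays' mean. There each array takes its own value or, if higher, the dimmest probe on it that was well above background. That probe is not a detection limit: on Empty 1 it read 1.87, and Orm2 read 2.53 there without being well above background. For Orm2 the Empty mean taken in this way equals the measured mean (2.02). The bounds are therefore rough and hold for the main processing only. The fit was tested on simulated data. The 10 genes and the lists of relatives and markers were chosen with earlier results of these data known. All 10 genes with every probe were named; in each list, the called genes with the largest difference between the proteins (up to 2); for each gene the 2 most alike and the nearest tested neighbours. Lgals4, Kcne3, Kcnh2, Serpina3g, Hp, Cp and marker genes beyond this were named after their values were seen. The replicate numbers did not pair samples.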

Additional observations from a re-analysis of the deposited data

How the results depend on the processing

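Of the values of the 10 genes against Empty under the alternatives, 549 kept their status as called or not called, 50 lost the call and 5 gained it. A further 1 turned with a call: Srd5a2 with Ebf1wt, -1.13 without Empty 2 (1.24 without Empty 1). Values that changed sign without a call in either fit are counted among the 549. An example is Mc1r with Ebf1-H240A (0.09 with normexp background correction). Sizes depended on the background treatment. With normexp background correction the difference between the proteins kept its direction in 10 of 10 genes and was smaller in 10: it was 1.07 for Srd5a2, 1.35 for Orm1, 3.01 for Ramp3, -1.45 for Scgb1c1, -2.50 for Evpl, -2.0 for Htra3, -0.46 for Mc1r and -0.35 for Aldh1a3, with 1.81 and 3.28 for Kcne1 and Grifin. In the series' value table it was 2.49 for Orm1, -2.35 for Scgb1c1, -1.16 for Mc1r and -1.14 for Aldh1a3, and with a floor of 16 it was 2.62 for Orm1, -1.62 for Mc1r and -0.22 for Aldh1a3. With probes well above background on all 8 arrays, 5 of the 10 genes were left. Of these, 4 were called with Ebf1-H240A, 5 with Ebf1wt and 4 for the mean of the proteins. Their direction between the proteins could not change, as this filter leaves their values as they were. Within slide 1, 1 gene was called with Ebf1wt; within slide 2, 5 were called in each comparison with Empty. These fits hold 4 arrays each. Leaving out 1 array at a time gave 7 to 9 called genes with Ebf1-H240A, 8 to 10 with Ebf1wt and 8 to 9 for the mean. All 10 directions between the proteins were kept, which had to follow because no arrays of the 2 proteins overlapped. Samples with the same replicate number did not deviate together (r from -0.33 to 0.19). With the replicate number as a block, 7, 8 and 8 genes were called with Ebf1-H240A, Ebf1wt and the mean. The genes lost under that replicate block were Htra3 with Ebf1-H240A (0.66, adjusted p = 0.0582), Kcne1 with Ebf1wt (1.72, adjusted p = 0.0721) and Srd5a2 for the mean (1.90, adjusted p = 0.0643). The alternatives for relatives, neighbours and marker genes were chosen after seeing the data. Of their values 1794 kept their status as called or not called, 257 lost the call, 10 gained it and 0 turned with a call. Between the proteins 6 to 8 of at most 20 tested neighbours were called, except within slides (0). The fit of only the groups compared gives no value for the mean, which already holds all groups. The causes of these losses were not tested. Signal over background limits Orm1, Scgb1c1 and Aldh1a3 to rough bounds against Empty.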
